A study of Mus musculus with 6 samples.

Results

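The histone and DNA modifying enzymes described here are the genes that write or erase acetyl and methyl groups on chromatin, chosen by their names: every gene whose symbol begins with Kdm, Kmt, Prmt, Kat, Hdac, Sirt, Setd or Dnmt and a number (or Setdb), together with Ezh1, Ezh2 and Tet1 to Tet3. The name rule used no measured value, although it was set with earlier results of these data known. It found 86 of the 35688 genes in the deposited table, of which 80 are enzyme genes and 6 are pseudogenes. They comprised 8 lysine acetyltransferases, 11 histone deacetylases, 7 sirtuins, 8 arginine methyltransferases, 20 lysine methyltransferases, 18 lysine demethylases and 8 genes of DNA methylation and its removal.

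The RNA, selected by its poly(A) tail, came from the mouse line m1102, grown from the ovarian surface epithelium that covers the ovary. Cells given 10 ng/mL TGFB1 for 4 days made up 3 libraries, and cells of the same line and medium left untreated made up the other 3. TGFB1 is a cytokine that acts through SMAD transcription factors and drives matrix production and the epithelial-mesenchymal transition in many epithelia. All values come from a single line, and the labels do not say that the libraries of a group came from separate cultures, so the p-values speak only of the variation among these libraries, which may be technical.

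Acetyltransferases place acetyl groups on histone tails, which loosens chromatin, and histone deacetylases and the NAD-dependent sirtuins take them off. Methyl groups on lysine or arginine either mark active genes or repress them, depending on the residue, and the demethylases remove those on lysine. DNA methyltransferases methylate cytosine, mostly at CpG sites, and TET dioxygenases begin its removal. Several of these enzymes are recruited by SMAD complexes or by the repressors of epithelial genes, as corepressors or coactivators, and many also act on proteins other than histones.

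Abundance is given in TPM, the authors' length-corrected scale, so levels may be set against each other between genes. Differences are log2 fold changes of TPM + 1, TGFB1 over untreated, and a gene was called where limma's test had a Benjamini-Hochberg adjusted p under 0.05 over the 12257 genes whose 6-library mean reached 1 TPM. Of the markers of ovarian surface epithelium and mesothelium, 8 of 11 were measured above that filter, with Wt1, Upk3b, Upk1b, Msln, Krt7 and Krt18 abundant, while Krt19 was at 2.01 TPM or less and Lhx9 and Aldh1a2 were at or near 0. Their summed level was 1030 to 1365 TPM in TGFB1 libraries and 1990 to 2075 TPM in untreated ones, with 4 of the 8 called lower. Of the other cell type lists, Fshr (granulosa), Lhcgr and Cyp17a1 (steroidogenic), Cdh5 (endothelium) and Ptprc (leukocytes) were at most 0.446 TPM. Other members were measured above the filter: Foxl2, Inha, Star, Cd68 and 1 endothelial gene. The granulosa list summed to 30.9 to 34.1 TPM with TGFB1 and 33.8 to 37.9 TPM untreated. Of its 2 tested genes, 1 was called higher and 1 lower, beside 15.8% and 14.6% of all genes tested. The endothelial list summed to 1.74 to 2.30 TPM with TGFB1 and 1.07 to 1.27 TPM untreated. The steroidogenic list, mostly Star, was at 79.8 to 182 TPM with TGFB1 and 280 to 326 TPM untreated. The leukocyte list, mostly Cd68, was at 7.91 to 10.9 TPM with TGFB1 and 18.7 to 26.8 TPM untreated. The part of any of these markers in the enzymes' values was not tested. The TGFB1 replicate 1 library stood apart, at -46.6 on the leading principal component (70.7% of the variance) against -20.2 and -18.1 for the other TGFB1 libraries and 27.1 to 29.8 for the untreated ones. It was the TGFB1 library furthest from the untreated mean in 41 of the 72 enzyme genes tested (56.9%), against 58.8% of all genes tested. In bulk RNA, fewer cells that express a gene and less RNA per cell cannot be told apart.

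Changes among the enzymes were few and small. After 4 days of TGFB1, 6 enzyme genes were called higher (Prmt2, Kdm2b, Hdac1, Hdac2, Kdm5a and Kat14) and 7 were called lower (Hdac5, Sirt2, Setd6, Sirt3, Kat2b, Kdm3a and Kmt2e). These 13 were 18.1% of the 72 tested, beside 30.4% of all genes tested, 15.8% called higher and 14.6% called lower. Fold changes of the tested enzymes ran from -0.85 to 0.75, so that 0 reached a 2-fold change, beside 635 such called genes (5.18%) in the whole table. The median fold change was 0.00 for the enzymes and 0.02 for all genes tested, and the median size of the change, whatever its sign, was 0.14 and 0.21. The 3 values of each group did not overlap for 28 of the 72 enzymes (38.9%; 17 with TGFB1 above and 11 below), beside 49.8% of all genes (26.3% above and 23.6% below).

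The spread between libraries sets how small a change could be called. The median coefficient of variation of a tested enzyme was 8.12% in TGFB1 libraries and 6.95% in untreated ones, beside 9.16% and 7.54% over all genes tested. Only 5 of the 13 calls, Prmt2, Kdm2b, Hdac1, Hdac2 and Sirt2, held in all 16 other settings of the analysis. Leaving out TGFB1 replicate 1 gave 8 enzymes higher and 6 lower. The count of lower enzymes was 3 without TGFB1 replicate 2, 2 without TGFB1 replicate 3, 2 without untreated replicate 1, 2 without untreated replicate 2 and 1 without untreated replicate 3, while 4 to 5 enzymes were higher in those fits. When libraries were rescaled without mitochondrial transcripts and the 20 most abundant genes, 12 enzymes were higher and 3 lower, and the share of called genes that were higher was 62.7% over the whole table, beside 52.0% in the deposited scaling.

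**Figure D1:**
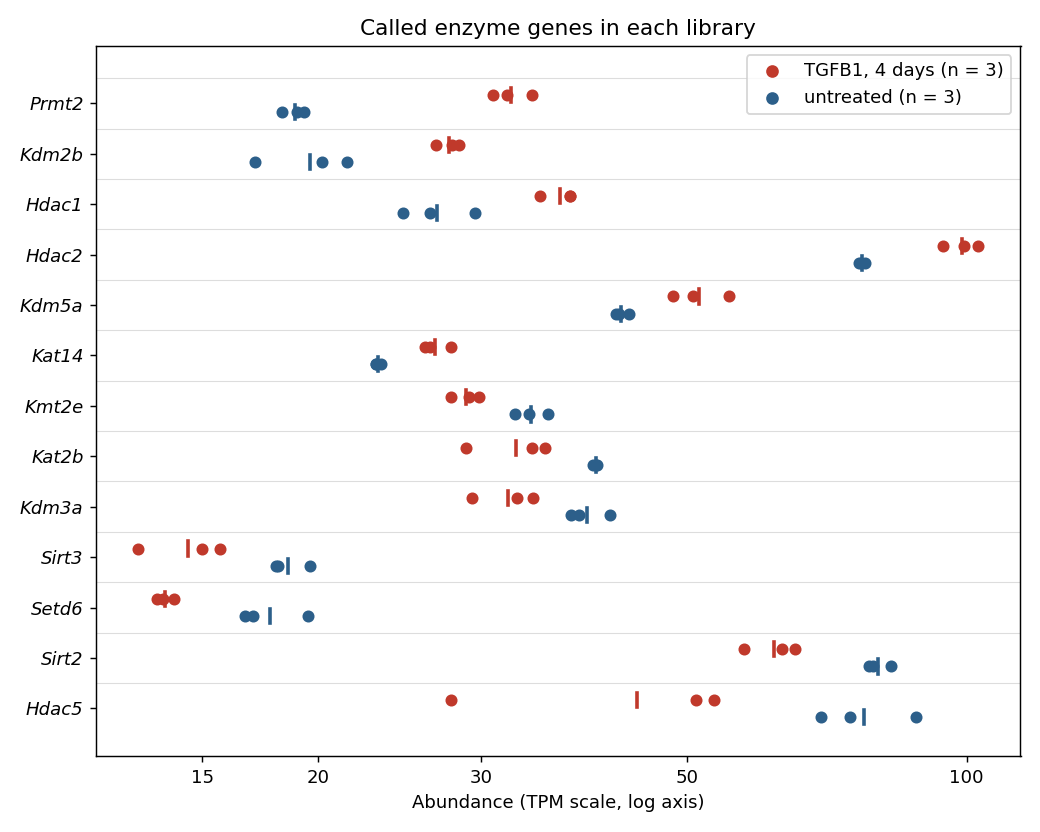
Abundance (TPM scale, log axis) of the 13 called enzyme genes in each of the 3 TGFB1 libraries (upper, red points of each gene) and the 3 untreated libraries (lower, blue points), with the group mean as a vertical bar. The points of the 2 groups do not overlap for any of the 13; Hdac5 has the widest spread, with 1 TGFB1 library at 27.8 TPM and the others at 51.1 and 53.4.

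The largest rise among the tested enzymes belonged to Prmt2, an arginine methyltransferase that also acts as a coactivator of nuclear receptors. Prmt2 had 34.0, 30.9 and 32.0 TPM in TGFB1 libraries, against 18.3, 19.0 and 19.3 TPM in untreated libraries. The groups were well apart, and the lowest TGFB1 library was above the highest untreated one by more than the range within either group. The log2 fold change was 0.75 (SE 0.0654, limma adjusted p = 0.000761). The most abundant arginine methyltransferase was Prmt1, which makes most of the asymmetric dimethylarginine in cells. Prmt1 had 411, 316 and 309 TPM in TGFB1 libraries and 296, 232 and 249 TPM in untreated ones. Every TGFB1 library was above every untreated one, the lowest and highest of the 2 groups being close, and the change of 0.41 was not called (SE 0.135, limma adjusted p = 0.0608, 95% interval 0.09 to 0.73). Other settings called it, among them quantile normalization and the rescaling above.

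Among the rest of the arginine methyltransferases, Prmt5, which makes symmetric dimethylarginine, had 24.4, 18.8 and 16.0 TPM in TGFB1 libraries and 15.9, 14.5 and 14.5 TPM in untreated ones. The groups were only just apart and the change of 0.36 was not called (limma adjusted p = 0.110), its interval being 0.01 to 0.70. The difference was 0.20 without TGFB1 replicate 1, and 0.49 and called without TGFB1 replicate 3 (limma adjusted p = 0.0416). Prmt6, which methylates arginine of the histone H3 tail, was at 16.6 to 20 TPM in TGFB1 libraries against 13.8 to 16.1 TPM in untreated libraries, and was not called (0.25, limma adjusted p = 0.0913). Of the 31-base words of Prmt6, 22.9% occur in other genes, most of all in the antisense transcript C130013H08Rik, so reads may be shared. Prmt3, which methylates a ribosomal protein, differed by 0.01 (95% interval -0.18 to 0.19). Prmt7 and Prmt9 differed by 0.09 and 0.16, and Prmt8, an enzyme of the brain, was at 0 in 5 of 6 libraries.

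As a class, the 7 tested arginine methyltransferases had a median fold change of 0.25, beside 0.02 over all genes. Of them 1 was called higher and 0 lower (14.3% called, beside 30.4% of all genes), and 4 and 0 at an unadjusted p under 0.05. All 7 fold changes were above 0 in the deposited scaling, after quantile normalization and after the rescaling, and 6 of 7 with median-of-ratios scaling; without TGFB1 replicate 1 they were 5 of 7, with a median of 0.18. Their summed abundance was 565, 449 and 445 TPM in TGFB1 libraries and 417, 347 and 365 TPM in untreated libraries. The sums did not overlap, Prmt1 made up most of each, and TGFB1 replicate 1 was far above the other 5 libraries.

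Of the 10 deacetylases tested, 2 were called higher and 1 lower, with a median of 0.09. Hdac1 and Hdac2, the class I catalytic subunits shared by the Sin3, NuRD and CoREST corepressor complexes, both rose, while Hdac5, a class IIa deacetylase that moves between nucleus and cytoplasm and represses MEF2 targets, fell. Hdac2 had 103, 99.4 and 94.4 TPM in TGFB1 libraries, against 77.7, 77.0 and 76.6 TPM in untreated libraries, a change of 0.36 (SE 0.0564, limma adjusted p = 0.00519). Hdac1 had 37.4, 37.4 and 34.7 TPM in TGFB1 libraries, against 29.5, 24.7 and 26.4 TPM in untreated libraries, a change of 0.43 (SE 0.0821, limma adjusted p = 0.00965). In both genes all TGFB1 libraries were above all untreated ones, and the untreated values of Hdac2 were almost identical. The value of Hdac1 (chr4:129516104-129542713, minus strand) is uncertain, since 40.0% of its 31-base words also occur in other genes, most of all in its near-copy Gm10093. That copy was called higher too, at 15.6, 15.0 and 16.4 TPM in TGFB1 libraries and 11.0, 9.41 and 10.0 TPM in untreated ones (0.58, limma adjusted p = 0.00364). The sum of Hdac1 and Gm10093 was 52.2 ± 0.999 TPM with TGFB1 and 37.0 ± 3.25 TPM untreated (SD, n = 3 each).

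Hdac5 had the largest fall of any tested enzyme. It had 27.8, 51.1 and 53.4 TPM in TGFB1 libraries, against 69.7, 88.2 and 74.9 TPM in untreated libraries. The groups did not overlap, with TGFB1 replicate 1 far below the other TGFB1 libraries. The change was -0.85 (SE 0.244, limma adjusted p = 0.0389), and -0.55 without TGFB1 replicate 1 (limma adjusted p = 0.00780). The call was lost when any 1 untreated library was left out (adjusted p up to 0.119), without the filter and without the intensity trend. The other class IIa genes tested did not pass the test. Hdac4 differed by -0.04 (95% interval -0.27 to 0.20) and Hdac7 by 0.14 (-0.10 to 0.39). Hdac9 was under the filter, at 0.159, 0.127 and 0.253 TPM with TGFB1 and 0.466, 0.576 and 0.686 TPM untreated. Its groups did not overlap, and without the filter it was called lower. In relative terms its fall was the larger, with a TGFB1 mean 0.312 of the untreated mean, beside 0.569 for Hdac5. Values this low are less precise.

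Of the remaining deacetylases, Hdac3, the catalytic subunit of the NCoR corepressor, had 58.0, 58.1 and 61.7 TPM in TGFB1 libraries and 58.7, 56.0 and 59.6 TPM in untreated libraries. The groups overlapped and the difference was 0.03 (95% interval -0.11 to 0.17). Hdac11, the only class IV enzyme and an efficient remover of fatty acyl groups, had 6.15, 8.91 and 10.1 TPM with TGFB1 and 5.47, 5.88 and 4.76 TPM untreated. It was not called (0.54, limma adjusted p = 0.0558), but was called at 0.72 without TGFB1 replicate 1 (limma adjusted p = 0.00451). Part of Hdac11 (16.3% of its 31-base words) occurs in other genes, most of all in the antisense gene Gm44002. Hdac6, a tubulin deacetylase, differed by 0.16, Hdac8 by -0.02 and Hdac10, a polyamine deacetylase, by -0.21, none of them called.

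Taken within each library, the sum of Hdac1 and Hdac2 over the sum of Hdac4, Hdac5 and Hdac7 was 1.72, 1.41 and 1.27 in TGFB1 libraries, against 0.925, 0.750 and 0.875 in untreated libraries. A ratio within a library is the same under any scaling of the library by a single factor. All untreated ratios were below 1 and all TGFB1 ratios above it. The ratio leaves out the class I genes Hdac3 and Hdac8. It holds Hdac1, Hdac2 and Hdac5, which were called, so its separation is not an independent result. With whole classes, the class I sum was above the class IIa sum in every library, untreated ones included. The 4 class I deacetylases together summed to 205, 202 and 199 TPM with TGFB1 and 172, 165 and 171 TPM untreated, and the 4 class IIa deacetylases to 81.8, 96.8 and 102 TPM with TGFB1 and 116, 136 and 118 TPM untreated. Over all 11 deacetylases the sums overlapped, at 315 to 333 TPM with TGFB1 and 316 to 328 TPM untreated.

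**Figure D2:**
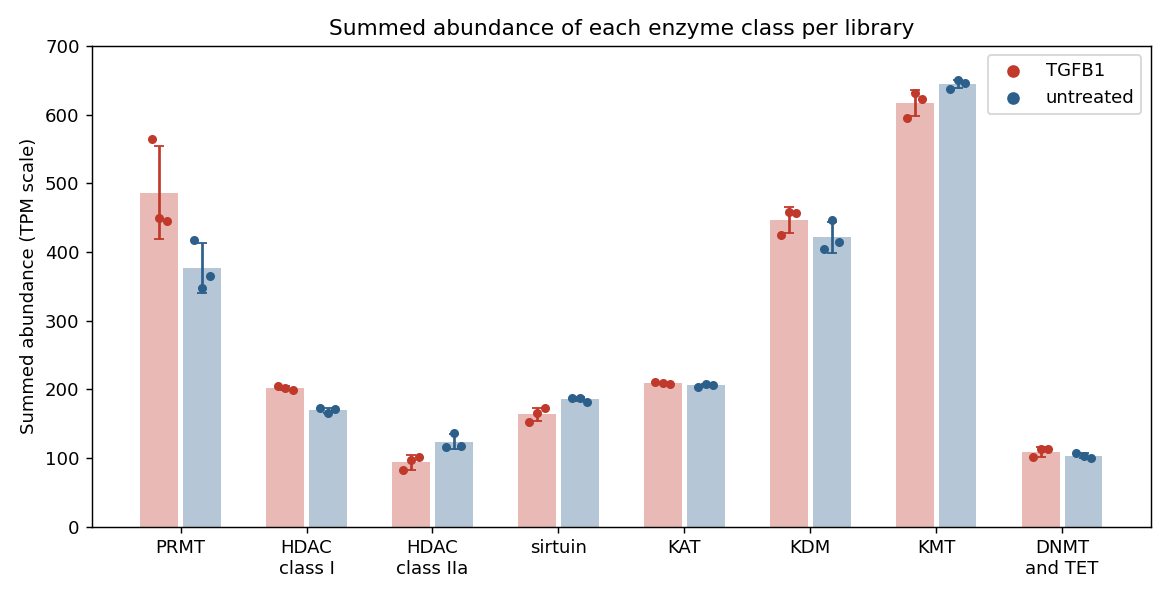
Summed abundance (TPM scale, axis from 0) of each enzyme class in each library (points), with the mean (bar) and the SD (error bar) of the 3 TGFB1 libraries (red, left) and the 3 untreated libraries (blue, right). PRMT, KAT, KDM and KMT stand for arginine methyltransferases, lysine acetyltransferases, lysine demethylases and lysine methyltransferases. Class I deacetylases and arginine methyltransferases lie above the untreated sums in every TGFB1 library. Class IIa deacetylases, sirtuins and lysine methyltransferases lie below the untreated sums in every TGFB1 library. For the lysine methyltransferases the gap is narrow (631 against 638 TPM) and depends on the scaling.

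Of the 7 sirtuins, 2 were called lower and 0 higher (28.6% called, beside 30.4% of all genes). The counts were also 2 and 0 at an unadjusted p under 0.05, and the median was -0.17. Sirt2, a mainly cytosolic deacetylase of tubulin and other proteins, fell, and so did Sirt3, the main deacetylase of mitochondria. Sirt2 had 57.6, 63.2 and 65.3 TPM in TGFB1 libraries, against 78.5, 82.9 and 79.3 TPM in untreated libraries, a change of -0.37 (SE 0.0666, limma adjusted p = 0.00825). Sirt3 had 12.8, 15.7 and 15.0 TPM in TGFB1 libraries, against 19.6, 18.0 and 18.1 TPM in untreated ones, a change of -0.34 (SE 0.0925, limma adjusted p = 0.0328). Both genes were below every untreated library in every TGFB1 library, and the call of Sirt3 was lost in 7 of the 16 other settings. Sirt2 overlaps the antisense gene Nfkbib, and Sirt3 overlaps Psmd13 and Ric8a on the opposite strand.

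The other mitochondrial sirtuins were not called. Sirt4 differed by -0.19 (95% interval -0.44 to 0.05) and Sirt5, which removes succinyl and malonyl groups, by -0.17 (-0.40 to 0.05). The mitochondrial sirtuins were below 0 in 3 of 3 cases under each of the 4 scalings, and their summed abundance was 39.4, 41.2 and 42.5 TPM with TGFB1 and 48.1, 47.9 and 50.8 TPM untreated. Sirt1, a nuclear deacetylase of histones and p53, had 11.2, 11.6 and 11.1 TPM with TGFB1 and 12.5, 11.1 and 10.6 TPM untreated. Its groups overlapped and its difference was -0.00 (95% interval -0.20 to 0.19). The nuclear sirtuins Sirt6 and Sirt7 differed by 0.08 and 0.12.

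The 250 bases before and 50 bases after the annotated start are shown for the 2 called enzymes with the largest rises and the 2 with the largest falls that have exactly 1 start in RefSeq (GRCm38.p6), since these members moved in opposite directions. Letters run 5′ to 3′ along the gene's strand. The motif searched was CAGAC and, on the other strand, GTCTG, the SMAD-binding box; matches are in capitals and all other letters are in lower case.
Prmt2: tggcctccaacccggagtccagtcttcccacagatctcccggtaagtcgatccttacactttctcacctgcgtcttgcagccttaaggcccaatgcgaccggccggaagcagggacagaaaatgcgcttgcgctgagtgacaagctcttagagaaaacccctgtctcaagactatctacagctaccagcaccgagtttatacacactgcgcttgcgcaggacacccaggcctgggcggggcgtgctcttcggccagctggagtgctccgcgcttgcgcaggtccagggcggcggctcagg
Hdac2: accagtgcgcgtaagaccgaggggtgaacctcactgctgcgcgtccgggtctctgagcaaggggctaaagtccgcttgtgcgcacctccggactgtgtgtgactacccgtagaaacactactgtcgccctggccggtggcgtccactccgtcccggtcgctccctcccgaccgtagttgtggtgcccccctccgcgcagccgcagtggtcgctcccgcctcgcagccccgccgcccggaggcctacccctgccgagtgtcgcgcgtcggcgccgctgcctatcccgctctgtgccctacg
Hdac5: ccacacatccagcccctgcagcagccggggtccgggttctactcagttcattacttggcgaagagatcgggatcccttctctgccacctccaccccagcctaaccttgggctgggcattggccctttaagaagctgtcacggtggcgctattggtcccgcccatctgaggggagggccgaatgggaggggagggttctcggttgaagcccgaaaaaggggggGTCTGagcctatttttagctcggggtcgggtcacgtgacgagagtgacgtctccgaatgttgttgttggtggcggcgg
Sirt2: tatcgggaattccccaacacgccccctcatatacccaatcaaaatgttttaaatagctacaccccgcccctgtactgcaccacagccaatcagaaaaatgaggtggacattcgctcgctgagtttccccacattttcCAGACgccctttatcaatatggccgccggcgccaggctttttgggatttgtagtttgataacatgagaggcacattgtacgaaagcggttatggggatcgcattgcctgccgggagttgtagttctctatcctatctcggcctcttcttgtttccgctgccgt
The windows are chr10:76237816-76238115 (minus strand) for Prmt2, chr10:36974294-36974593 (plus strand) for Hdac2, chr11:102230123-102230422 (minus strand) for Hdac5 and chr7:28766502-28766801 (plus strand) for Sirt2. Prmt2 and Hdac2, which rose, held 0 matches each, and Hdac5 and Sirt2, which fell, held 1 match each, at positions -28 and -113 from the start. The motif was in 36 of the 94 promoters of the 67 enzymes with an entry (38.3%) and in 49.6% of all 32851 promoters of that length. The genes themselves lie, in GENCODE M21, at chr10:76207222-76237865, chr10:36974544-37001889, chr11:102194432-102230166 and chr7:28766735-28788661. All 4 windows are rich in CpG, with 20, 36, 18 and 16 CG pairs in the order printed, beside a median of 21 in the enzymes' promoters and 7 in all promoters. A match is only a string of letters, and no binding was measured.

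The acetyltransferases moved little. Kat2a and Kat2b are the alternative catalytic subunits of the SAGA and ATAC coactivator complexes, and Kat14 is a further subunit of ATAC. Kat2b had 28.9, 35.1 and 34.0 TPM in TGFB1 libraries, against 40.0, 39.9 and 39.6 TPM in untreated libraries, and was called lower (-0.28, SE 0.0841, limma adjusted p = 0.0437). Kat2a had 29.3, 26.7 and 23.8 TPM with TGFB1 and 23.9, 20.8 and 21.8 TPM untreated, and was not called (0.25, limma adjusted p = 0.0911). Only the highest untreated value of Kat2a reached into the TGFB1 range. Their ratio within a library, Kat2a over Kat2b, was 1.01, 0.761 and 0.699 with TGFB1 and 0.597, 0.521 and 0.550 untreated, with no overlap. The ratio holds Kat2b, which was called, so its separation is not an independent result.

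Kat14 had 27.8, 26.4 and 26.1 TPM in TGFB1 libraries and 23.1, 23.1 and 23.4 TPM in untreated ones, and was called higher (0.20, SE 0.0600, limma adjusted p = 0.0458). The calls of Kat14 and Kat2b were lost in 10 and 9 of the 16 other settings, Kat14 overlaps Pet117 on the same strand, and 14.6% of the 31-base words of Kat2b occur in other genes, most of all in the pseudogene Kat2b-ps, itself under 0.1 TPM in all libraries. The MYST family enzymes Kat5, Kat6a, Kat6b, Kat7 and Kat8 ranged from -0.09 to 0.12 and none was called. Kat7, the most abundant acetyltransferase and a histone H3 and H4 enzyme tied to DNA replication, had 46.4, 44.4 and 44.2 TPM with TGFB1 and 41.5, 41.5 and 41.2 TPM untreated (0.12, limma adjusted p = 0.155). The summed acetyltransferases were nearly level, at 207 to 210 TPM with TGFB1 and 204 to 208 TPM untreated.

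Among the lysine demethylases Kdm2b, Kdm5a and Kdm3a were called. Kdm2b removes methyl groups from H3K36 and carries a CpG-binding domain that brings a variant Polycomb repressive complex 1 to CpG islands. It had 27.9, 28.4 and 26.8 TPM in TGFB1 libraries, against 17.1, 21.5 and 20.2 TPM in untreated libraries, a change of 0.48 (SE 0.0929, limma adjusted p = 0.0103). The groups were clearly apart. Kdm2b (chr5:122870665-122989823, minus strand) overlaps Rnf34 on the opposite strand and shares 13.4% of its 31-base words with other genes, most of all Rnf34; Rnf34 was called higher as well (0.28, limma adjusted p = 0.0355), and the use of strand in counting was not stated in the sources used here. Its relative Kdm2a differed by 0.09 (95% interval -0.06 to 0.24).

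Kdm5a, which removes methyl groups from H3K4, had 48.3, 50.7 and 55.4 TPM in TGFB1 libraries, against 42.2, 43.3 and 41.9 TPM in untreated libraries, and rose by 0.27 (SE 0.0686, limma adjusted p = 0.0267). Its call was lost when any library other than TGFB1 replicate 1 was left out. Of its relatives, Kdm5b had 23.8, 29.0 and 30.5 TPM with TGFB1 and 18.0, 24.0 and 22.0 TPM untreated, and was not called (0.37, limma adjusted p = 0.0786), although among other settings it was called at 0.47 without TGFB1 replicate 1 (limma adjusted p = 0.0260). Kdm5c, the most abundant demethylase, differed by 0.09 (-0.07 to 0.26), with overlapping groups.

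Kdm3a, an H3K9 demethylase known to be induced by low oxygen, had 29.3, 34.1 and 32.8 TPM in TGFB1 libraries, against 41.3, 38.2 and 37.5 TPM in untreated libraries, and was called lower (-0.28, SE 0.0793, limma adjusted p = 0.0388). This call was lost in 10 of 16 other settings, among them each fit with 1 library left out. Kdm1a, the flavin-dependent H3K4 demethylase of the CoREST complex, had 34.8, 37.9 and 37.9 TPM with TGFB1 and 30 to 33.1 TPM untreated. The groups did not overlap, but the change of 0.20 was not called (limma adjusted p = 0.0680; adjusted p = 0.0335 without TGFB1 replicate 1). For the H3K27 demethylases, Kdm6a differed by -0.04 (95% interval -0.38 to 0.31), and Kdm6b had 16.8, 18.6 and 18.7 TPM with TGFB1 and 21.2, 23.2 and 19.9 TPM untreated, not called (-0.24, limma adjusted p = 0.0752). Over the class, 2 of 16 tested were called higher and 1 lower (18.8% called, beside 30.4% of all genes), with a median of 0.04. Kdm4d and Kdm5d were under the filter, at most 0.523 TPM.

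The lysine methyltransferases were the largest class and had 0 of 20 genes called higher and 2 lower (10.0% called, beside 30.4% of all genes). The counts were the same at an unadjusted p under 0.05, and the median was -0.10. Setd6, known in human cells to methylate the NF-kB subunit RelA, had 13.4, 14.0 and 13.6 TPM in TGFB1 libraries, against 17.0, 16.7 and 19.5 TPM in untreated libraries, a change of -0.35 (SE 0.0811, limma adjusted p = 0.0194). Kmt2e, an atypical family member that binds methylated H3K4 and is not known for robust methyltransferase activity, had 27.8, 29.1 and 29.8 TPM in TGFB1 libraries, against 33.8, 35.4 and 32.6 TPM in untreated libraries, a change of -0.22 (SE 0.0638, limma adjusted p = 0.0392). In both the highest TGFB1 value was below the lowest untreated value. Setd6 lost its call in 3 and Kmt2e in 8 of the 16 other settings.

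Polycomb repressive complex 2 places H3K27 methylation through Ezh2 or its relative Ezh1, which is typical of resting cells. Ezh2 had 61.1, 72.5 and 65.1 TPM in TGFB1 libraries and 65.4, 56.0 and 58.3 TPM in untreated ones, and was not called (0.14, limma adjusted p = 0.272, 95% interval -0.07 to 0.35). Ezh1 had 16.5, 25.8 and 26.3 TPM with TGFB1 and 23.0 to 34.5 TPM untreated, and was not called (-0.35, limma adjusted p = 0.253, -0.85 to 0.15); without TGFB1 replicate 1 the difference was -0.14. The groups overlapped for both genes and for their ratio, Ezh2 over Ezh1, which was 3.70, 2.81 and 2.48 with TGFB1 and 2.84, 1.62 and 1.94 untreated. The summed H3K27 demethylases over the summed H3K27 methyltransferases also overlapped, at 0.493 to 0.525 with TGFB1 and 0.500 to 0.628 untreated.

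The H3K4 methyltransferases of the COMPASS family (Kmt2a to Kmt2d, Setd1a and Setd1b) ranged from -0.27 to 0.13, with 0 called and 0 at an unadjusted p under 0.05 (limma). The lowest, Setd1b, was at -0.11 without TGFB1 replicate 1. The value of Setd1a is uncertain, since 51.8% of its 31-base words are shared with other genes, most of all with Gm49388, which overlaps it on the same strand. Setdb1, which trimethylates H3K9 at silenced repeats, was at 17.2 to 18.8 TPM with TGFB1 and 17.9 to 18.6 TPM untreated, and its difference of -0.00 had an interval of -0.16 to 0.15. Setd2, which trimethylates H3K36 in transcribed genes, differed by 0.02 (-0.22 to 0.26). The most abundant methyltransferase was Kmt5a, which monomethylates H4K20 and varies through the cell cycle; it had 115, 105 and 96.2 TPM with TGFB1 and 120, 99.0 and 124 TPM untreated, with overlapping groups. Setd3, an actin histidine methyltransferase, was at 78.0 to 79.2 TPM with TGFB1 and 78.5 to 88.8 TPM untreated, and was not called (-0.11, limma adjusted p = 0.251). Of the 20 fold changes 14 were below 0, a count that was 15 with median-of-ratios scaling, 14 after quantile normalization and 11 after the rescaling. The class summed to 595, 631 and 623 TPM with TGFB1 and to 638, 650 and 646 TPM untreated, without overlap in the deposited scaling. The gap was narrow, at 631 TPM in TGFB1 replicate 2 against 638 TPM in untreated replicate 1. The column totals of these libraries, 986280 and 1010425, differed by a larger share, so the separation depends on the scaling.

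**Figure D3:**
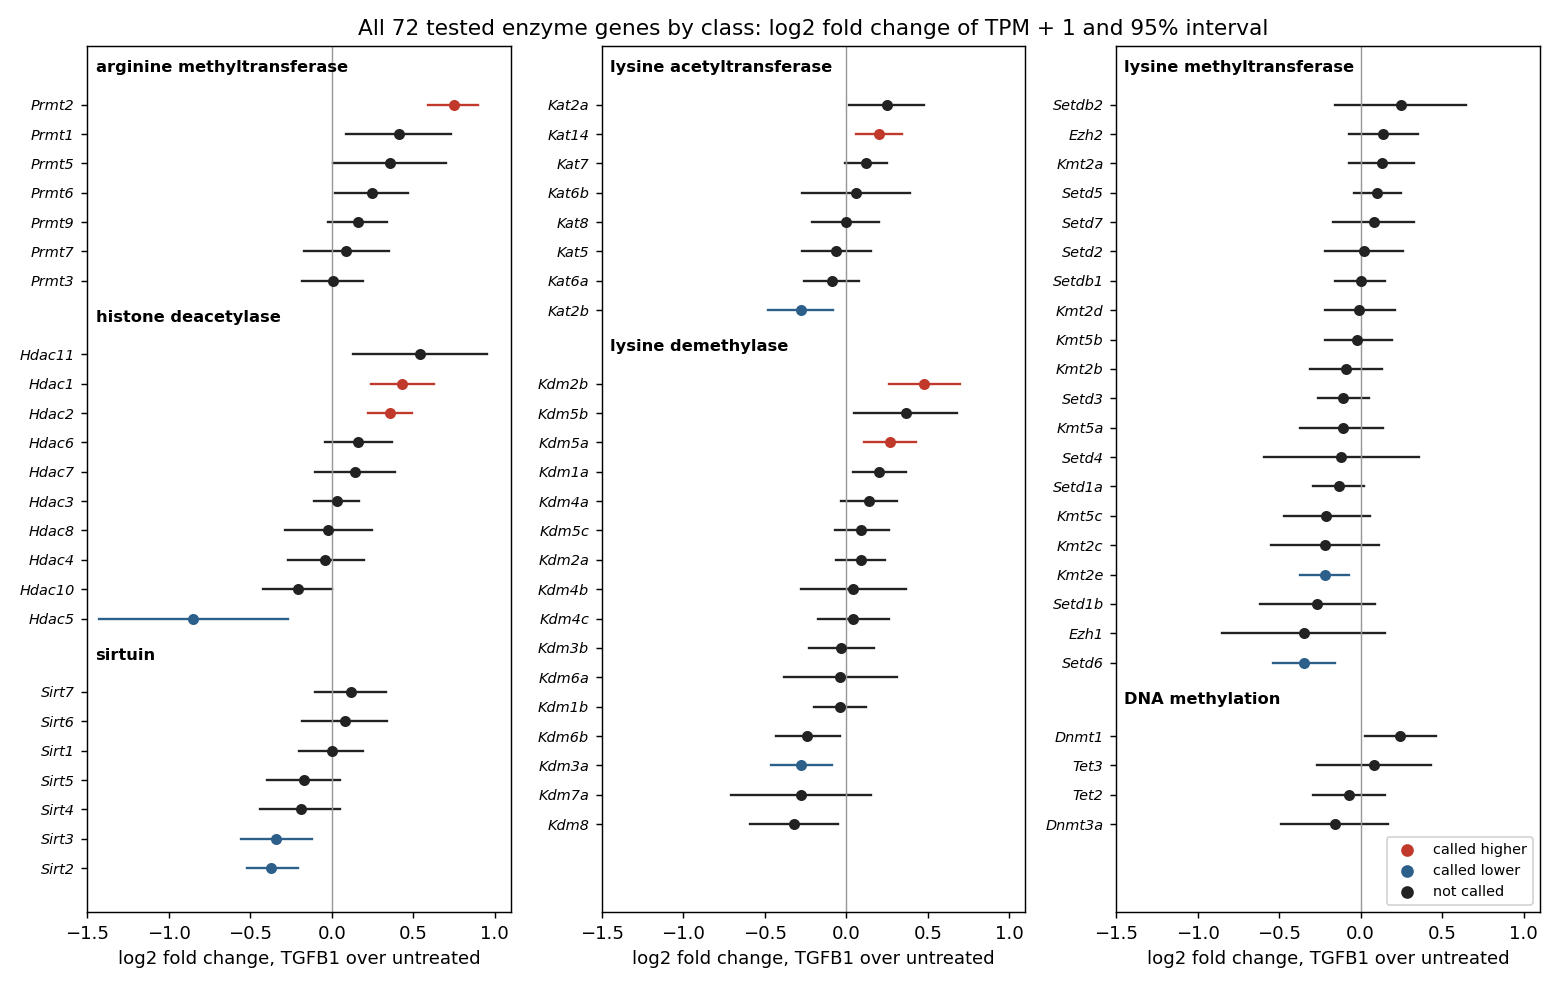
Log2 fold change of TPM + 1, TGFB1 over untreated, for the 72 tested enzyme genes by class (points), with limma's 95% interval (lines); red is called higher, blue called lower and black not called. Most intervals span 0, all 7 arginine methyltransferases lie to the right of 0, and 14 of 20 lysine methyltransferases lie to the left.

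DNA methylation genes gave 0 calls in either direction, beside 30.4% of all genes called, with 4 of 8 tested and fold changes from -0.16 to 0.24. By limma, 1 of the 4, Dnmt1, had an unadjusted p under 0.05, and it alone was called in any other setting. Dnmt1, the maintenance methyltransferase that copies methylation after replication, had 56.5, 54.7 and 53.7 TPM in TGFB1 libraries and 52.2, 41.2 and 45.9 TPM in untreated libraries. The groups were just apart and the change of 0.24 was not called (SE 0.0910, limma adjusted p = 0.0842). It was called after the rescaling and without untreated replicate 1. Dnmt3a, which adds methylation to unmethylated sites, had 28.3, 38.4 and 39.6 TPM with TGFB1 and 37.5, 43.5 and 36.9 TPM untreated, with overlap (-0.16, limma adjusted p = 0.426; -0.01 without TGFB1 replicate 1).

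Dnmt3b, the other such enzyme, lay at the filter and was not tested. It had 1.06, 1.04 and 1.03 TPM with TGFB1 and 0.830, 0.857 and 0.742 TPM untreated. Tet3 was the most abundant TET enzyme, at 9.97, 14.2 and 14.8 TPM with TGFB1 and 11.9, 12.9 and 11.4 TPM untreated, and differed by 0.08 (95% interval -0.27 to 0.43). Tet2 differed by -0.07 (-0.29 to 0.15). Tet1, typical of embryonic stem cells, was at most 0.237 TPM, and the germ-cell genes Dnmt3c and Dnmt3l were at most 0.121 TPM.

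Since Dnmt1, Ezh2 and Kmt5a vary with the cell cycle, a list of 20 proliferation genes was read beside them. Of these 2 were called higher, Rrm2 (0.83, limma adjusted p = 0.0245) and E2f1 (0.37, limma adjusted p = 0.0198), and 0 lower (10% called, beside 30.4% of all genes), with the same counts at an unadjusted p under 0.05; without untreated replicate 2 or untreated replicate 3, 0 were called. The list summed to 1705, 1647 and 1568 TPM with TGFB1 and to 1705, 1329 and 1666 TPM untreated, with untreated replicate 2 the lowest of the 6. That library also had the lowest Dnmt1 and Ezh2. Kmt5a was lowest in TGFB1 replicate 3, at 96.2 TPM against 99.0 TPM in untreated replicate 2. The part of proliferation in the values of these enzymes was not tested.

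The partner subunits of the enzymes were read from lists of the complexes they work in. For Polycomb repressive complex 2, the core subunits Suz12 and Eed were not called (-0.08 and 0.39), while 1 of 10 tested partners was called higher and 2 lower (30% called, beside 30.4% of all genes). Epop, an accessory subunit that moderates the complex's activity at active genes, had 11.9, 10.7 and 9.94 TPM with TGFB1 and 5.91, 5.25 and 5.06 TPM untreated. Every TGFB1 value was well above the untreated ones, with a change of 0.88 (limma adjusted p = 0.00170). The accessory subunits Phf1 and Aebp2 were called lower, at -0.49 (limma adjusted p = 0.0180) and -0.24 (limma adjusted p = 0.0431). The count of lower partners was 1 when any 1 TGFB1 library was left out and 0 when any 1 untreated library was.

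Polycomb repressive complex 1, which ubiquitinates histone H2A and includes the complex that Kdm2b recruits, had 5 of 18 genes higher and 2 lower (38.9% called, beside 30.4% of all genes). Pcgf3 (0.61, limma adjusted p = 0.00359) and Phc1 (0.46, limma adjusted p = 0.0248) rose, as did the catalytic subunit Rnf2, the chromodomain subunit Cbx2 and Yaf2. Cbx7, which reads H3K27 methylation, fell by 0.71 (limma adjusted p = 0.0393), having 6.26, 9.77 and 11.2 TPM with TGFB1 and 12.9, 15.4 and 17.5 TPM untreated, and its relative Cbx6 was lower too. Pcgf1, the subunit that defines the complex brought by Kdm2b, had 14.1, 17.6 and 19.6 TPM with TGFB1 and 21.4, 23.0 and 20.8 TPM untreated; the groups did not overlap, and it was not called (-0.34, limma adjusted p = 0.0741). The list's counts were 1 to 4 higher and 0 to 3 lower when a library other than TGFB1 replicate 1 was left out, and 6 and 2 without TGFB1 replicate 1.

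The corepressor partners of Hdac1, Hdac2 and Hdac3 had 3 of 27 genes higher and 4 lower (25.9% called, beside 30.4% of all genes). The largest changes were in Tbl1x (-0.78, limma adjusted p = 0.00934), Tbl1xr1 (-0.75, limma adjusted p = 0.0171) and Rcor3 (-0.54, limma adjusted p = 0.00632). Tbl1x and Tbl1xr1 are related subunits of the NCoR complex, and Rcor3 belongs to the CoREST family. Tbl1x had 85.9, 126 and 123 TPM with TGFB1 and 180, 199 and 192 TPM untreated, clearly apart. Among those that rose were Chd3 of the NuRD complex (0.41, limma adjusted p = 0.0187) and Sin3b (0.27, limma adjusted p = 0.0273). The counts were 5 higher and 3 lower without TGFB1 replicate 1, 1 and 2 without untreated replicate 1 or untreated replicate 3, and 2 and 2 without untreated replicate 2.

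Against the same 30.4%, the next 3 lists had 8.33%, 18.5% and 23.1% of their tested genes called. COMPASS partners had 1 of 12 higher (Men1, the menin scaffold, 0.28, limma adjusted p = 0.0210) and 0 lower, beside 1 and 1 at an unadjusted p under 0.05. The call of Men1 was lost when TGFB1 replicate 2, TGFB1 replicate 3, untreated replicate 1 or untreated replicate 3 was left out. The KAT complex partners had 2 of 27 higher and 3 lower, among them Jade2 (-0.51, limma adjusted p = 0.0241), Kansl1 (0.47, limma adjusted p = 0.00274) and Ing5 (-0.42, limma adjusted p = 0.00849). Jade2 and Ing5 are subunits of the Kat7 complex and Kansl1 is the scaffold of a Kat8 complex. With 1 library left out, these counts were 2 higher and 4 lower without TGFB1 replicate 1, 1 and 3 without TGFB1 replicate 2 or TGFB1 replicate 3, 1 and 1 without untreated replicate 1, and 1 and 2 without untreated replicate 2 or untreated replicate 3. Readers and partners of DNA methylation had 3 of 13 higher and 0 lower: Gadd45a and Gadd45b, linked to DNA repair and demethylation, at 0.78 and 0.50 (limma adjusted p = 0.0211 and 0.0224), and Trim28, the corepressor that brings Setdb1 to repeats, at 0.31 (limma adjusted p = 0.0404). Uhrf1, which guides Dnmt1 to newly copied DNA, was not called (0.51, limma adjusted p = 0.106). Of the 13, 5 were higher and 1 lower at an unadjusted p under 0.05. By adjusted p, 0 were called without untreated replicate 3 and without the filter, and 1 without untreated replicate 1 or untreated replicate 2.

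Chromatin enzymes with names outside these symbol families were read as well, and 22.2%, 8.33% and 14.3% of the genes tested in the 3 lists were called, beside 30.4% of all genes. Of 18 tested genes listed as further lysine methyltransferases, 3 were higher, Prdm4 (0.42), Prdm2 (0.41) and Setmar (0.40), with limma adjusted p of 0.00463, 0.00931 and 0.0337. In the same list 1 was lower, the H3K79 enzyme Dot1l (-0.20, limma adjusted p = 0.0482). A place on the list does not establish that a gene's product has the activity. The call of Dot1l was lost without the filter, without the intensity trend, after the rescaling and when any library other than TGFB1 replicate 1 was left out. Of 12 further acetyltransferases, including Ep300 and Crebbp, 0 were higher and 1 was lower (0 and 3 at an unadjusted p under 0.05), the amino-terminal acetyltransferase Naa10 (-0.72, limma adjusted p = 0.00789). Of 7 further demethylases tested, Hr alone was called (0.70, limma adjusted p = 0.0131), at a low level of 2.27 to 3.09 TPM with TGFB1 and 1.14 to 1.45 TPM untreated; without untreated replicate 3 it was not called.

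Many genes that handle the enzymes' cofactors were lower with TGFB1, and none was called higher. The list covers S-adenosylmethionine for the methyltransferases, acetyl-CoA for the acetyltransferases, 2-oxoglutarate for the JmjC demethylases and TET enzymes, and NAD for the sirtuins. The list was chosen with earlier results of these data known, so its share of calls is a description and not an independent finding. Of its 14 tested genes 8 were called lower and 0 higher (57.1%, beside 14.6% of all genes called lower; 9 and 1 at an unadjusted p under 0.05), with a median of -0.37; 6 to 9 were lower in every other setting, at most 1 was higher, and 8 were lower without TGFB1 replicate 1. Nampt, the rate-limiting enzyme of NAD salvage, had 17.8, 15.3 and 13.5 TPM with TGFB1 and 27.5, 22.9 and 23.0 TPM untreated (-0.63, SE 0.120, limma adjusted p = 0.00992). Idh1, the cytosolic producer of 2-oxoglutarate and NADPH, had 142, 177 and 177 TPM with TGFB1 and 244, 250 and 231 TPM untreated (-0.55, SE 0.0943, limma adjusted p = 0.00664). Nnmt, which consumes S-adenosylmethionine and nicotinamide rather than supplying them, had 67.8, 67.3 and 67.3 TPM with TGFB1 and 107, 85.1 and 103 TPM untreated (-0.53, SE 0.0915, limma adjusted p = 0.00692). In these 3 genes the groups did not overlap.

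The other 5 called lower were Mat2b, a regulatory subunit of S-adenosylmethionine synthesis, Acss2, which makes acetyl-CoA from acetate, the folate enzyme Mthfd1, the mitochondrial isocitrate dehydrogenase Idh2 and the NAD kinase Nadk, from -0.50 to -0.35. The catalytic subunit Mat2a (-0.05) and the acetyl-CoA enzyme Acly (0.18) were not called. The ovarian surface epithelial markers were lower in the same libraries, as given above, and their part in these differences was not tested.

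**Figure D4:**
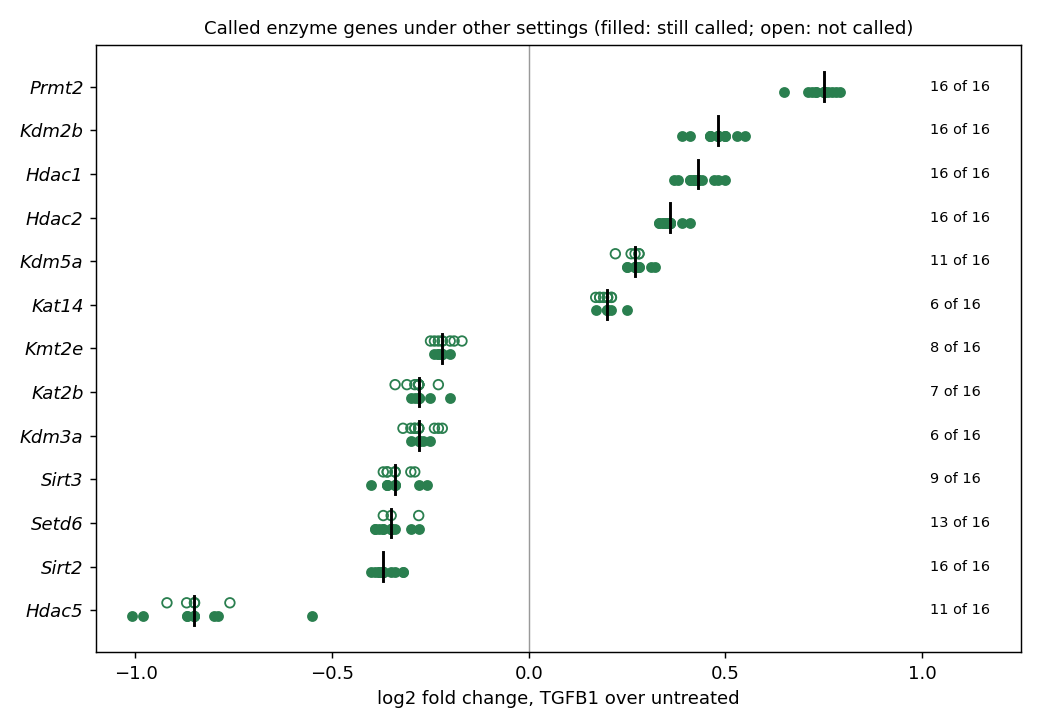
Log2 fold change, TGFB1 over untreated, of the 13 called enzyme genes in the deposited scaling (black bar) and in the 16 other settings (filled points where the gene was still called, open points where not), with the count of settings that kept the call at the right. No fold change crosses 0 in any of these settings, and Prmt2, Kdm2b, Hdac1, Hdac2 and Sirt2 have only filled points.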

How the data were processed

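The deposited table holds 1 value per gene and library, on a TPM scale that the authors deposited, which is a length-corrected signal and not plain TPM, since column totals run from 983434 to 1026702. The sources used here do not give the step that set the common scale. Per the submitters' processing notes, kallisto 0.44.0, sleuth 0.30.0 and GRCm38 are named, without a role. Per the labels' protocols, libraries came from 250 ng of total RNA with a strand-marking kit. The table holds no read counts, so library depth cannot be known and counting intervals are left out; low values are less precise.

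Genes whose mean over the 6 libraries was 1 TPM or more were fitted as log2(TPM + 1) with limma 3.58.1 in R 4.3.3 (lmFit, eBayes with an intensity trend), two-sided, with Benjamini-Hochberg adjustment over 12257 genes. The steps were tested on simulated data. Fold changes of low genes are understated. Members and lists were chosen with earlier results of these data known. Named genes are all called members, 21 fixed members, the most abundant of each class and up to 3 called genes of each partner list with the largest change; others are given by ranges and counts, and those named beside them were chosen after their values were seen. Shared 31-base words and overlaps use GENCODE M21 (GRCm38) and Python 3.11.15.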

Additional observations from a re-analysis of the deposited data

How the results depend on the processing

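Counts of called enzymes were 6 higher and 7 lower. The lower count was 4 without the filter, 3 after rescaling without mitochondrial transcripts and the 20 most abundant genes (with 12 higher) and 4 with the replicate number as a block (with 7 higher). The median fold change was 0.001 and 0.050 after the rescaling, with the median of all genes at 0.061 after it, against 0.015 before. The causes were not tested. With 1 library left out, 4 to 8 enzymes were higher and 1 to 6 lower, the median was -0.019 to 0.037, and over all genes 1113 to 2024 were higher and 917 to 1926 lower; these fits hold fewer samples. Over the 32 tested enzymes named by rule, 443 of 511 fold changes stayed on the same side of the threshold. The call was lost in 57 and gained in 11. Where the gene was called in either fit, 0 changed sign. Some genes that were not called, such as Sirt1 and Setd2, did change sign in some settings. Same-numbered libraries of the groups had correlated deviations of 0.198, 0.153 and -0.038, so the numbers were not taken as pairs; with the block, Prmt1, Ezh1 and Kdm5b were called (limma adjusted p = 0.00923, 0.0313 and 0.0204). Depth is unknown, which limits most the genes near 1 TPM, such as Dnmt3b and Hdac9.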
